A study of Danio rerio with 45 samples.

Results

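The cytosolic ribosomal protein genes encode the proteins of the large and small ribosomal subunits outside mitochondria. They were taken by name from the deposited expression table of a zebrafish (Danio rerio) embryo series: symbols starting with rpl, rps or rplp and a digit in any case, without the ribosomal S6 kinases, RPS27L and rows that carry several symbols, and with at least 1 FPKM in 3 or more libraries. FPKM counts sequenced fragments relative to transcript length and to the size of the library, so levels of different genes are compared per length. Of 31966 rows in the table, 71 had such a name and 70 passed the threshold. The 70 members are 35 large-subunit genes (among them rpl7l1, a relative of rpl7 that acts in ribosome assembly), 30 small-subunit genes, 4 stalk genes (rplp0, rplp1, rplp2 and rplp2l, which build the flexible arm that recruits translation factors) and RPS19BP1, which encodes a nucleolar partner of a ribosomal protein and is not a ribosomal protein itself. They lie on 23 chromosomes.

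Whole embryos of strain AB/PS were collected at 5 stages between 2.5 and 10 hours post fertilisation (hpf), a period over which the embryo's own genome becomes active. Wild-type embryos (WT) were set beside embryos carrying a morpholino, an antisense oligomer injected to block a transcript, against Rad21, a cohesin subunit (Rad21 MO), or against CTCF, a DNA-binding protein that positions cohesin (CTCF MO). Each of the 15 groups held 3 libraries, each made from 100 pooled embryos staged by eye, and total RNA depleted of ribosomal RNA was sequenced with strand information. Whether WT embryos received a control oligomer, and which step of expression the morpholinos block, is not given in the sources used here. No other allele or agent is named.

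Ribosomes of the early embryo are supplied by the egg, and in zebrafish the egg deposits a distinct type of ribosomal RNA that is later replaced by a somatic type. Ribosomal protein transcripts are among the most abundant of growing cells, and each ribosome needs 1 copy of most of these proteins, so their genes are usually expressed at similar levels. In vertebrates their messenger RNAs start with a pyrimidine-rich stretch through which growth signals control their translation. Unbound RPL5 and RPL11 are known from mammalian cells to inhibit MDM2, the main antagonist of p53.

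FPKM gives no read totals, so the depth of each library is unknown. Low values placed the deepest library at roughly 2.50 times the shallowest. This figure is uncertain, as the commonest ratio held only 15.7% to 27.7% of low genes and any scaling between libraries is not given. Libraries summed to between 675988 and 1815964 FPKM and held 12788 to 15833 genes at 1 FPKM or more. Within groups, log2 profiles correlated at 0.93 to 0.96 across genes, and no library pair held identical values. For 2 Rad21 MO samples the title and the age label disagree between 3.3 and 4.5 hpf, and they cannot be matched to columns. All 3 Rad21 MO libraries of 4.5 hpf had more of the early zygotic transcript blf (247, 266 and 256 FPKM) than the 3 of 3.3 hpf (122, 69.7 and 89.98 FPKM). The targeted rad21a ranged from 94.1 to 112 FPKM with Rad21 MO, 108 to 132 with CTCF MO and 132 to 158 in WT at 4.5 hpf. The targeted ctcf ranged from 233 to 239 FPKM with CTCF MO, 326 to 334 with Rad21 MO and 473 to 517 in WT at 5.3 hpf. These levels would not check a morpholino that blocks translation. Libraries at 10 hpf stood apart in p53 targets within the WT and CTCF MO groups. The p53 target ccng1 was at 1824, 441 and 339 FPKM in the WT libraries. Rad21 MO libraries held 2029, 2258 and 2074 FPKM of it, and the CTCF MO libraries 1396, 360 and 1702. Red-cell markers summed to at most 1.04 FPKM in any WT library before 10 hpf, and markers of ovarian somatic cells to at most 0.32 FPKM.

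In WT embryos the member transcripts stayed level between 2.5 and 3.3 hpf and then climbed in 3 steps. The 70 members together summed to 9374 ± 1276 FPKM (SD, n = 3) at 2.5 hpf, 9160 ± 575 at 3.3 hpf, 18116 ± 3212 at 4.5 hpf, 29882 ± 5054 at 5.3 hpf and 142401 ± 15610.3 at 10 hpf. As a share of the FPKM of a library this was 1.24% ± 0.247, 1.19% ± 0.118, 1.55% ± 0.246, 2.05% ± 0.322 and 8.95% ± 0.788. The 5 early zygotic markers summed to 17.9 to 30.4 FPKM at 2.5 hpf and already to 127 to 171 at 3.3 hpf. For the members the libraries of 2.5 and 3.3 hpf overlapped in both measures, and those of 10 hpf lay far above the others. In whole embryos, fewer cells of a type and less RNA per cell cannot be told apart.

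**Figure D1:**
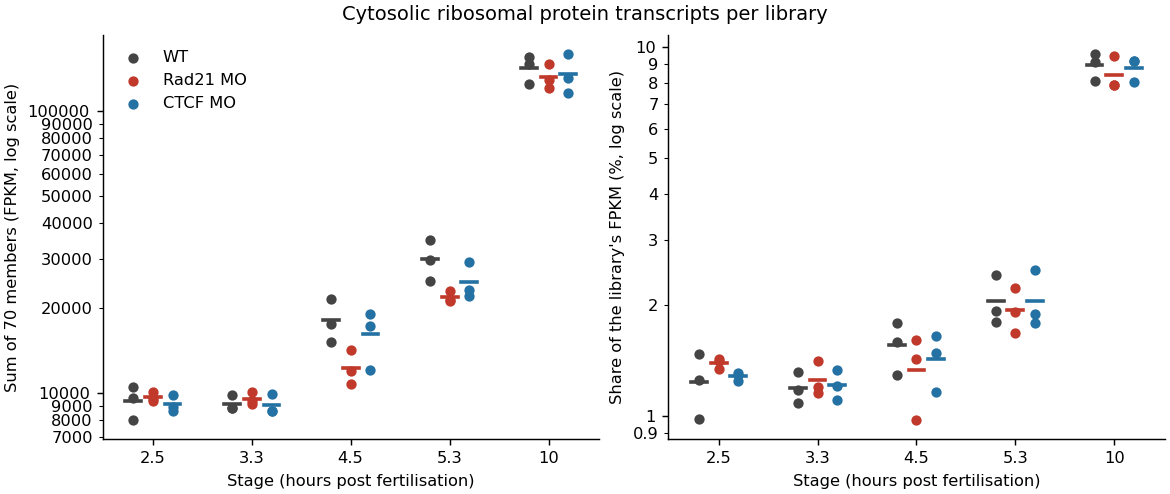
Sum of the 70 members in FPKM (left) and their share of the FPKM of a library (right), on log axes, for the 3 libraries of each group; bars are group means. WT means went from 9374 FPKM at 2.5 hpf to 142401 at 10 hpf, and the Rad21 MO sums at 4.5 and 5.3 hpf lie below all WT sums while their shares overlap.

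From 2.5 to 3.3 hpf limma called 0 of 70 members, against 2.46% of all 17410 genes tested. At an unadjusted p under 0.05 were 2 members, both lower, and 1657 of all genes. The median log2 change of the members was -0.0032. From 3.3 to 4.5 hpf 65 members rose and 0 fell, where 25.3% of all genes rose and 21.4% fell, with a median log2 change of 0.96 against 0.03 over all genes. From 4.5 to 5.3 hpf 63 rose and 0 fell (14.1% of all genes rose and 10.2% fell), with a median of 0.77 against 0.02. From 5.3 to 10 hpf 68 rose and 0 fell (37.7% of all genes rose and 31.2% fell), with a median of 2.29 against 0.07. The last step took in all 35 large-subunit genes, 29 of 30 small-subunit genes and all 4 stalk genes. The first 2 rises depended on the scale of the libraries. When each library was rescaled to 1e+06, which put the median of all genes at -0.35 and -0.18, 30 members rose and 1 fell from 3.3 to 4.5 hpf (12.8% of all genes rose and 40.8% fell) and 16 rose from 4.5 to 5.3 hpf (4.97% of all genes rose and 20.4% fell); relative to those medians the members stood at 0.72 and 0.63. Quantile normalization gave 35 higher with 1 lower and 17 higher. The step to 10 hpf held at 68 members under both. The shares of all genes called under quantile normalization are not given here, nor those of the step to 10 hpf after rescaling. Those counts alone do not size the change.

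The 3 members with the largest rise at 4.5 hpf were rpl36, rps26l and rpl30. Large-subunit gene rpl36 (chromosome 22, 1222009 to 1227590 on Zv9) was at 18.2, 21.3 and 16.5 FPKM at 3.3 hpf and at 58.5, 98.9 and 61.95 FPKM at 4.5 hpf. All libraries of 4.5 hpf lay above those of 3.3 hpf (log2 change 1.88, SE 0.21, limma adjusted p = 7.89e-06). Small-subunit gene rps26l stood at 36.0 ± 4.15 and then 120.2 ± 30.1 FPKM (log2 change 1.69, adjusted p = 3.05e-05), and rpl30 at 69.0 ± 12.3 and then 211 ± 44.7 FPKM (log2 change 1.59, adjusted p = 2.04e-05). Among the 5 members not called in this step were RPL37A, rpl19, rpl7l1 and rplp2.

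Between 4.5 and 5.3 hpf the largest rises were in rplp2, rpl5a and rpl27. Stalk gene rplp2 was at 11.95, 23.9 and 15.8 FPKM and then at 38.5, 40.1 and 28.9 FPKM, with no overlap (log2 change 1.05, SE 0.28, limma adjusted p = 0.0145). The rplp2 call ended under rescaling and without WT library 0 of 4.5 hpf or library 0 or 1 of 5.3 hpf, with adjusted p up to 0.0721 over the alternatives. The gene rpl5a, whose protein binds ribosomal 5S RNA, stood at 61.5 ± 11.8 and then 124.9 ± 32.1 FPKM, and its call held in all 11 alternatives (log2 change 0.99, adjusted p = 0.0021). For rpl27 the levels were 236 ± 58.4 and 468 ± 114 FPKM (log2 change 0.98, adjusted p = 0.0345), and its call ended in 7 of 11 alternatives, rescaling and quantile normalization among them. The count of 63 was 35 without WT library 0 of 4.5 hpf and 38 without library 1 of 5.3 hpf. The shares of all genes called without these libraries are not given here.

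Between 5.3 and 10 hpf rpl5a rose most. Its libraries held 144, 143 and 87.9 FPKM at 5.3 hpf and 976, 1291 and 1163 FPKM at 10 hpf (log2 change 3.21, SE 0.18, limma adjusted p = 2.16e-09). The large-subunit genes rpl22, an RNA-binding protein without which mice survive, and rpl34 followed. Their levels were 183 ± 37.1 and then 1332 ± 165 FPKM for rpl22 (log2 change 2.87), and 379 ± 102 and then 2576 ± 538 FPKM for rpl34 (log2 change 2.78). These 3 calls held in all 11 alternatives. One of the 2 members without a call was RPS19BP1, at 66.8 ± 5.65 and 76.0 ± 5.32 FPKM.

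From 2.5 to 10 hpf the ratio of WT means had a median of 17.5 over the members, and it exceeded 10 for 59 of them. Medians were 17.9 for large-subunit, 16.8 for small-subunit and 19.0 for stalk genes. The highest ratio was 36.7, of rpl36. In 3 members the ratio was under 5, among them rpl7l1 at 2.37 and RPS19BP1 at 2.61, which are tied to ribosome assembly rather than core ribosomal proteins. Members that started low gained more (Spearman rho -0.61 across the 70 members between WT level at 2.5 hpf and ratio, a description across genes that share the starting value). The 90th percentile of member levels was 5.15 times the 10th at 2.5 hpf and 2.67 times at 10 hpf. Over all 70 members, extremes included, the SD of log2(FPKM + 1) went the other way, from 1.14 to 1.48. The order of members by level kept a Spearman rho of 0.67 between 2.5 and 10 hpf. The summed large-subunit level stayed between 0.98 and 1.15 times the small-subunit level in all 45 libraries.

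**Figure D2:**
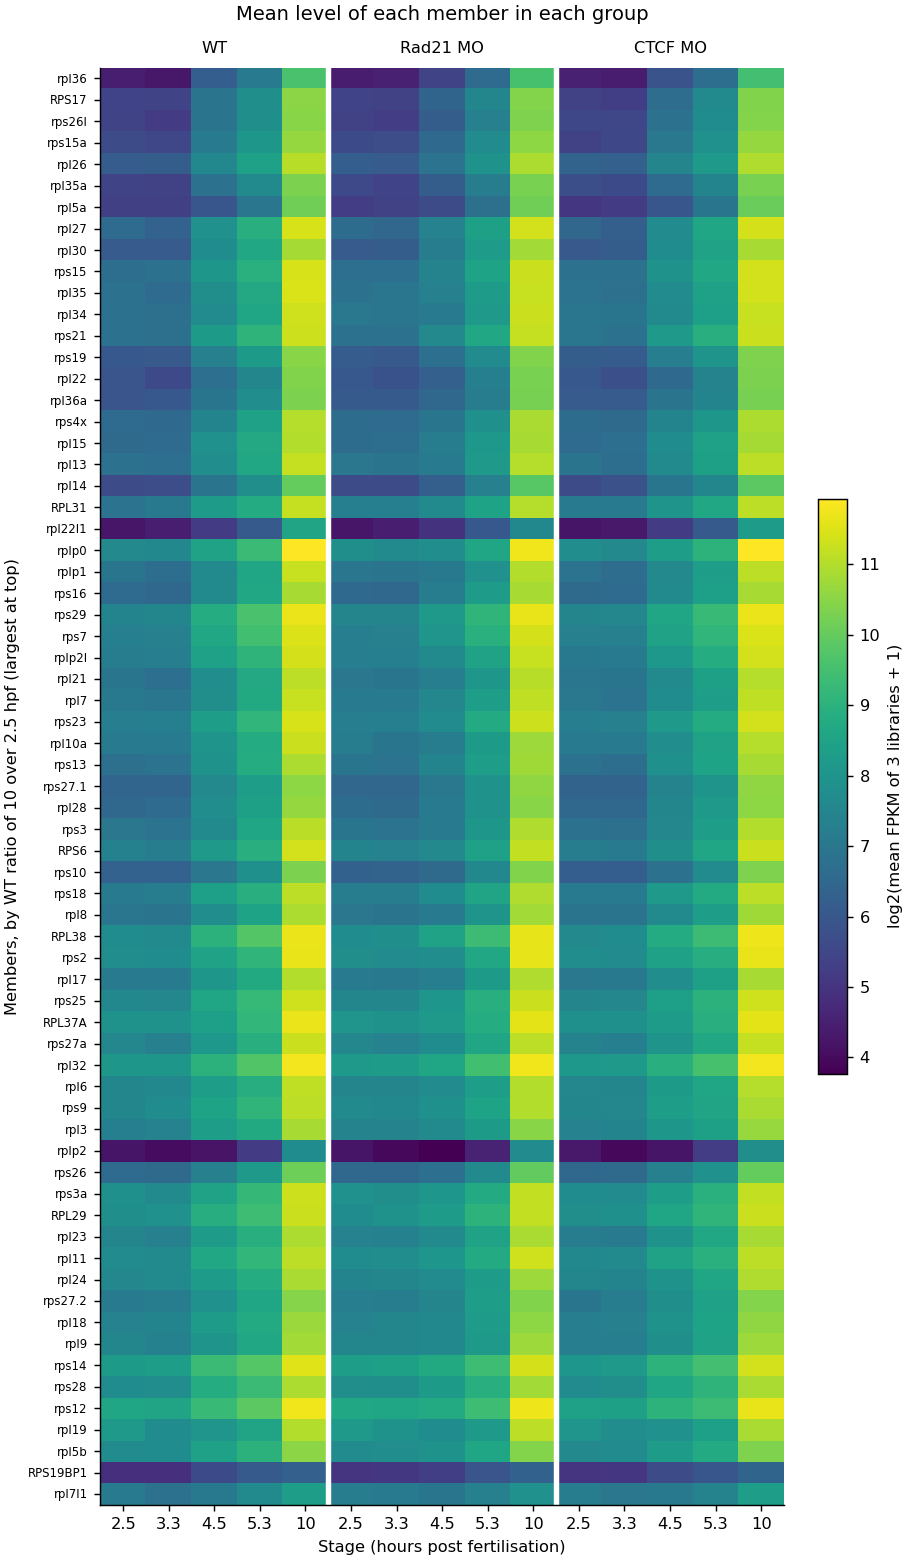
Group mean of 67 of the 70 members as log2(FPKM + 1), in rows from the largest to the smallest WT ratio of 10 over 2.5 hpf and in columns by group and stage. Nearly all rows brighten from 4.5 hpf on in each treatment; rpl7l1 and RPS19BP1 at the bottom do so least of those shown, with ratios of 2.37 and 2.61.

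By mean over the 15 WT libraries, the highest members were rps12 at 1145 FPKM, rpl32 at 1087, rplp0 at 1055, rps14 at 1013 and RPL38 at 1012. At 10 hpf their libraries ranged from 3117 to 3753 FPKM for rps12, 3251 to 3725 for rpl32, 3649 to 4191 for rplp0, 2503 to 3228 for rps14 and 2832 to 3610 for RPL38. The rplp0 range lay above those of rps14 and RPL38, the rpl32 range lay above that of rps14, and the other neighbours overlapped. Among the 5 lowest were RPS19BP1 at 49.5 FPKM, rplp2 at 59.9, rpl22l1 at 103 and rpl7l1 at 182. Genes linked to human Diamond-Blackfan anaemia showed the common course in WT: rps19 went from 64.0 to 1439 FPKM between 2.5 and 10 hpf, rpl11 from 208 to 2204 and rpl35 from 114 to 2821. RPS6, the small-subunit protein phosphorylated on growth signals, went from 162 to 2661 FPKM, rps3 from 126 to 2179, rpl3 from 155 to 1881, and rps27a, made as a fusion with ubiquitin, from 187 to 2477.

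Of 6 pairs of duplicated or related genes, 5 had ratios in WT libraries that did not overlap between 2.5 and 10 hpf. The test could not call any pair, since 3 against 3 libraries allow no p below 0.1. How often other gene pairs do not overlap was not counted. In WT, rpl5a was at 0.189 ± 0.0148 (SD, n = 3) of the rpl5b level at 2.5 hpf and at 0.784 ± 0.0289 at 10 hpf. The order of a pair turned over in 2 cases. The rps26 level was 1.93, 2.47 and 2.39 times that of rps26l at 2.5 hpf and 0.815, 0.774 and 0.756 times at 10 hpf. The rps27.1 level was 0.583, 0.727 and 0.518 times that of rps27.2 at 2.5 hpf and 1.03, 1.16 and 1.04 times at 10 hpf. The ratio of rpl7 to rpl7l1, a related assembly factor, moved from 0.986 ± 0.189 to 7.52 ± 0.532, and rplp2 stayed a minor form at 0.118 ± 0.0246 and 0.0784 ± 0.00718 of rplp2l. For these 5 pairs the exact two-sided permutation test on the log2 ratio gave p = 0.1 in each, the smallest p that 3 against 3 libraries allow (Benjamini-Hochberg adjusted 0.12 over 6 pairs). The ratio of rpl22 to rpl22l1 overlapped, at 3.29 ± 0.555 and 3.89 ± 1.27 (exact p = 0.6). With Rad21 MO and CTCF MO the 10 hpf ratios of rpl5a to rpl5b were 0.845 ± 0.0187 and 0.825 ± 0.0442, and those of rps26 to rps26l 0.762 ± 0.0171 and 0.743 ± 0.0158. Reads of near-identical copies may be divided unevenly by the counting, so these ratios are uncertain.

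**Figure D3:**
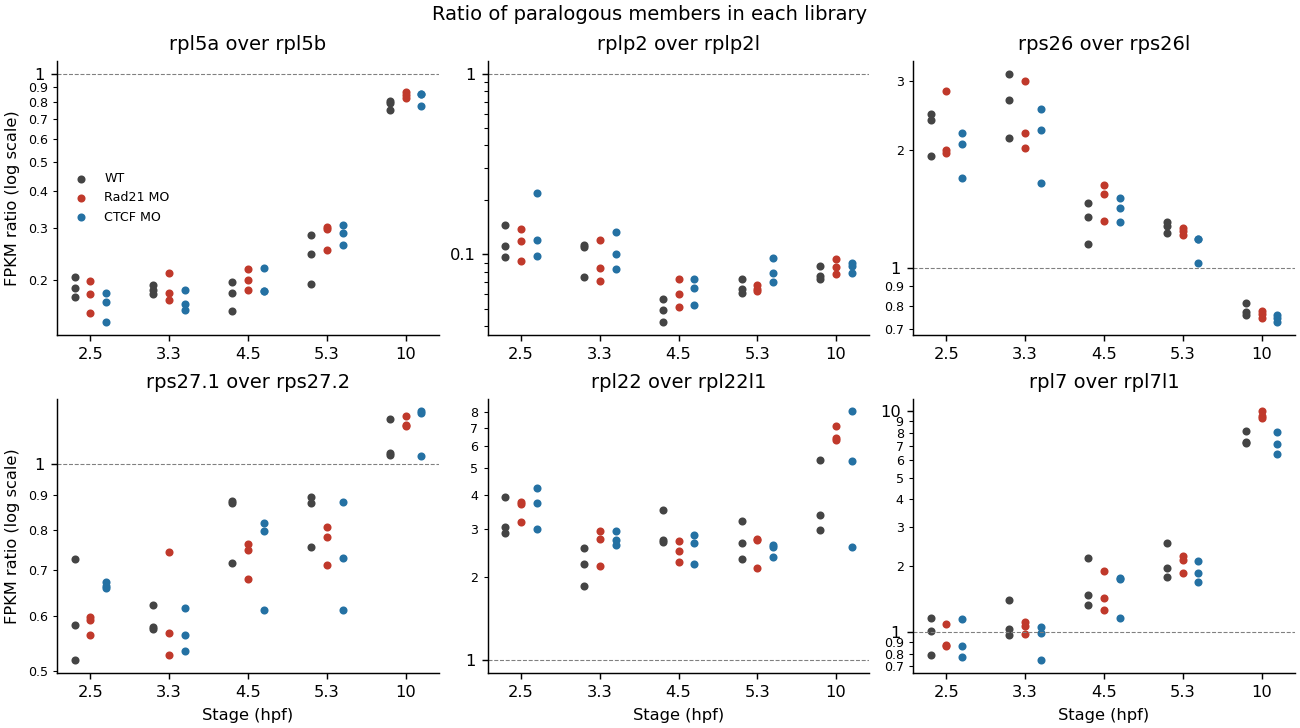
FPKM ratio of the first to the second gene of each pair in every library, on log axes, by stage and treatment; the dashed line marks equal levels. The rps26 and rps27.1 ratios cross it between 5.3 and 10 hpf, and rpl22 over rpl22l1 spreads at 10 hpf from 2.58 to 8.02 in CTCF MO libraries.

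At the 2 earliest stages no member passed the test with either morpholino. At 2.5 hpf limma called 0 of 70 members with either morpholino, as for all genes (0% in each). At an unadjusted p under 0.05 were 2 and 5 members, and 544 and 1140 of all 13595 genes tested. At 3.3 hpf it again called 0 and 0 (0.171% and 0.0569% of all genes). At an unadjusted p under 0.05 were 4 and 1 members, and 1116 and 1566 of all 14051 genes tested. The median log2 change of the members with Rad21 MO was 0.04.

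At 4.5 hpf member transcripts were lower in Rad21 MO embryos on the deposited values. The sum of members was 11966, 14156 and 10724 FPKM in Rad21 MO libraries against 15169, 21540 and 17640 in WT, 0.678 times the WT mean, and the groups did not overlap. limma called 16 members lower and 0 higher, where 10.1% of all genes were lower and 10.6% higher: 8 large-subunit, 7 small-subunit and 1 stalk gene. All 70 members had a negative log2 change, as did 55.6% of all genes, and the median was -0.56 against -0.07 over all genes. In 48 members all Rad21 MO libraries lay below all WT libraries, as in 21.5% of all genes. The median rise of members from 3.3 to 4.5 hpf on the log2 scale was 0.33 with Rad21 MO, 0.81 with CTCF MO and 0.96 in WT. For 68 of 70 members the Rad21 MO mean of 4.5 hpf lay between the WT means of 3.3 and 4.5 hpf. The CTCF MO mean did so for 64 of 70, so this position was not particular to Rad21 MO. The share of all genes in this position was not counted, and both counts rest on the deposited values.

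The summed FPKM of a library moved with this result, from 1163763 ± 48508 in WT to 940158 ± 142243 with Rad21 MO, and after rescaling to 1e+06 no member was called (median of members -0.25, of all genes 0.19). As a share of the library the members made up 1.34% ± 0.327 and 1.55% ± 0.246, which overlap. Quantile normalization also called 0, with medians of -0.19 and -0.07. Under both scalings the member median stayed below that of all genes. The share of all genes called under these and the settings below is not given here, so the counts alone do not size the change. Stage markers moved with it too: the 4 maternal markers summed to 390 to 558 FPKM in Rad21 MO and 116 to 145 in WT, and the 5 early zygotic markers to 697 to 871 against 977 to 1224. limma called 2 of the 4 maternal markers higher and 0 lower, and 1 of the 5 early zygotic markers higher and 2 lower. Their part in the result was not tested. The count of members called was 2 without WT library 1, 4 without WT library 2, 1 without Rad21 MO library 0, 2 without Rad21 MO library 2 and 55 when all 45 libraries shared 1 fit.

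The largest of these falls were in rpl17, rplp2l and rps26l. Large-subunit gene rpl17 was at 222, 338 and 262 FPKM in WT and lower, without overlap, at 153, 187 and 122 FPKM with Rad21 MO (log2 change -0.83, SE 0.22, limma adjusted p = 0.0273). Stalk gene rplp2l was at 203, 211 and 199 FPKM against 284, 423 and 321 (log2 change -0.72, SE 0.16, adjusted p = 0.0142), and rps26l at 76.8, 77.1 and 61.2 against 94.1, 153 and 113 (log2 change -0.72, SE 0.19, adjusted p = 0.0304). All 3 calls ended under both other scalings, with log2 changes from -0.51 to -0.40 after rescaling and from -0.47 to -0.32 after quantile normalization. The authors' deposited table for this stage listed members in 1 direction, 46 as lower and 0 as higher, among 3668 genes listed. How all listed genes split by direction is not given here, for this stage or the later ones. All 16 limma calls were among the 46, from the same libraries.

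On the deposited values the gap from WT was still present at 5.3 hpf. The Rad21 MO sums were 21422, 23098 and 21192 FPKM against 29702, 35024 and 24921 in WT, 0.733 times the mean, again with no overlap. limma called 23 of 69 members tested lower and 0 higher (9.90% of all genes lower, 12.2% higher), with 11 large-subunit, 8 small-subunit and all 4 stalk genes. The median was -0.45 against -0.03 over all genes, and all 69 log2 changes were negative, as were 52.4% over all genes. In 46 members all Rad21 MO libraries lay below all WT libraries, as in 20.3% of all genes. The largest called falls were in stalk genes, and their calls ended in 8 of 11 alternatives each. Their core, rplp0, was at 625, 789 and 506 FPKM in WT and, without overlap, at 374, 422 and 370.1 FPKM with Rad21 MO (log2 change -0.70, SE 0.20, limma adjusted p = 0.0353). Its partners rplp1, at 237 ± 11.99 against 387 ± 81.1 FPKM (log2 change -0.68, adjusted p = 0.0317), and rplp2, at 22.8 against 35.8 FPKM (log2 change -0.61, adjusted p = 0.0358), were lower as well. Between stages 8 members were called at both 4.5 and 5.3 hpf, 50% of the first list and 34.8% of the second. They include rpl3, rpl5b, rpl6, rpl8, rplp2l, rps9 and rps28. The overlap over all genes was not counted, so this overlap is not read as a lasting effect on these members.

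Scaling weighed on this stage too, and the share of all genes called under other settings is again not given. Libraries summed to 1459975 ± 76673 FPKM in WT against 1140541 ± 115542 with Rad21 MO, rescaling ended all calls (members -0.09, all genes 0.25), and quantile normalization left 1, rplp2 (median of members -0.07, of all genes -0.06). As a share of the library the members made up 1.94% ± 0.277 with Rad21 MO and 2.05% ± 0.322 in WT, which overlap. Without single libraries the count was 3 (WT 0), 4 (WT 1), 43 (WT 2), 6 (Rad21 MO 0 or 1) and 3 (Rad21 MO 2). Maternal markers summed to 244 to 353 FPKM in Rad21 MO and 64.2 to 80.6 in WT; their part was not tested. The authors' deposited table listed 38 members as lower among 3525 genes listed, and 19 of the 23 limma calls were among the 38.

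**Figure D4:**
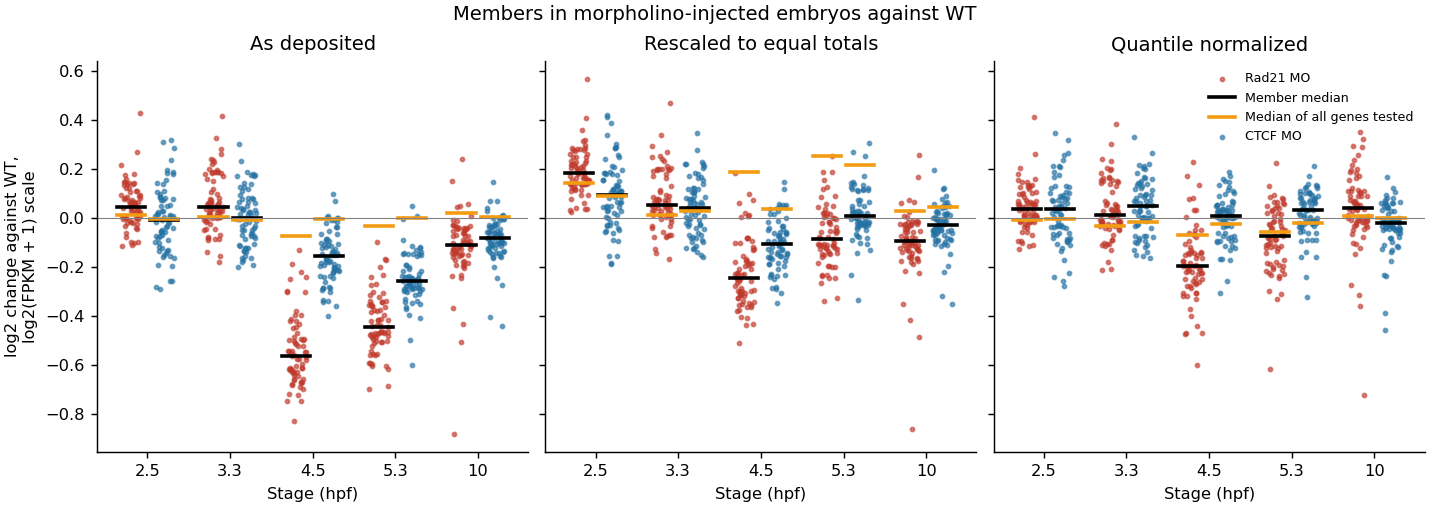
Log2 change of each member against WT of the same stage, for deposited values, libraries rescaled to equal totals, and quantile-normalized values; black bars are member medians and orange bars medians of all genes tested. At 4.5 hpf in Rad21 MO embryos the members sit below the orange bar in the first panels (-0.56 against -0.07, and -0.25 against 0.19) and close to it after quantile normalization (-0.19 against -0.07).

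In CTCF MO embryos 0 members passed the test at 4.5 hpf and 1 at 5.3 hpf. At 4.5 hpf limma called 0 members (0.00671% of all genes). At an unadjusted p under 0.05 were 0 members and 2268 of all 14902 genes tested. The sum was 0.892 times WT, with overlapping libraries. As a share of the library the members made up 1.43% ± 0.244 with CTCF MO and 1.55% ± 0.246 in WT, which overlap. Of 70 log2 changes 64 were negative, where 50.6% of all genes tested were negative. At 5.3 hpf the sum was 0.832 times WT, again with overlapping libraries. All genes together summed to 1214400 ± 33685 FPKM with CTCF MO and to 1459975 ± 76673 in WT. The member share of the library was 2.05% ± 0.379 with CTCF MO and 2.05% ± 0.322 in WT, so the lower sum was not seen in the share. At an unadjusted p under 0.05 were 11 of 69 members, all lower, and 3916 of all 15214 genes tested, in either direction. After adjustment 1 of 69 members fell (3.87% of all genes fell), the small-subunit gene rps9. Its level was 302, 364 and 442 FPKM against 583, 584 and 496 in WT, without overlap (log2 change -0.60, SE 0.14, limma adjusted p = 0.0289). That call ended under rescaling and quantile normalization, and without WT library 0 or 1 or CTCF MO library 0 or 1; without CTCF MO library 2 there were 7 calls. The authors' deposited table listed rpl7, rps9 and rps12 as lower, among 2172 genes listed. Stage markers differed here too. Maternal markers summed to 167 to 229 FPKM in CTCF MO against 116 to 145 in WT at 4.5 hpf, and to 123 to 168 against 64.2 to 80.6 at 5.3 hpf. Early zygotic markers summed to 1037 to 1216 FPKM against 1219 to 1468 at 5.3 hpf, and overlapped at 4.5 hpf. Single markers went both ways at 5.3 hpf. limma called 2 of 4 maternal markers higher and 1 lower, and 1 of 5 early zygotic markers higher and 2 lower. Their part in the result was not tested. The Rad21 MO and CTCF MO comparisons share the WT libraries, so their signs are not independent. Set directly against CTCF MO, Rad21 MO embryos had 0 members called at 4.5 hpf (2.76% of all genes, member median -0.39), 0 at 5.3 hpf (4.50%) and 0 at 10 hpf (3.38%). At an unadjusted p under 0.05 were 25, 5 and 1 members. Over all genes tested, 3357 of 14902, 3236 of 15214 and 3176 of 16485 passed that threshold. Without CTCF MO library 0 the count of members called at 4.5 hpf was 4, and in the fit of all 45 libraries 12. The shares of all genes called in that fit and without single libraries are not given here.

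By 10 hpf the Rad21 MO sum was 132274 ± 13146 FPKM and the CTCF MO sum 135764 ± 22371, 0.929 and 0.953 times WT, with overlapping libraries. limma called 0 members with Rad21 MO (3.23% of all genes) and 0 with CTCF MO (0.0182% of all genes), with medians of -0.11 and -0.08. At an unadjusted p under 0.05 were 1 and 0 members, and 3067 and 641 of all 16485 genes tested. The median step from 5.3 to 10 hpf was 2.58 in Rad21 MO and 2.29 in WT on the log2 scale. The authors' deposited table, with 1496 genes listed, had rpl22l1 (-0.94, q = 0.00122), rpl10a (-0.54, q = 0.00768) and rpl7l1 (-0.44, q = 0.0226) as lower in Rad21 MO. For these genes limma's adjusted p were 0.315, 0.378 and 0.134. In the fit of all 45 libraries limma called rpl7l1 (log2 change -0.43, adjusted p = 0.0203) and rpl22l1 (log2 change -0.88, adjusted p = 0.0291). Without WT library 0, limma called rpl7l1 (log2 change -0.57, adjusted p = 0.0477).

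Levels of rpl22l1, the paralogue of rpl22, varied within groups at this stage. They were 215, 489 and 415 FPKM in the WT libraries. Rad21 MO libraries held 219, 191 and 166 FPKM, and the CTCF MO libraries 172, 554 and 198. The 3 libraries with the highest rpl22l1, WT libraries 1 and 2 and CTCF MO library 1, were those with ccng1 between 339 and 441 FPKM, and the other 6 had ccng1 between 1396 and 2258. The p53 inhibitor and target mdm2 was at 36.9, 30.4 and 27.5 FPKM in those 3 libraries and between 91.7 and 322 in the rest. Those 3 libraries were also the highest for rpl22 itself, at 1456, 1395 and 1430 FPKM, with the other 6 between 1045 and 1390, a narrower gap. The libraries fall into separate clusters, so no correlation is given, and the link between rpl22l1 and p53 targets was not tested. Large-subunit rpl10a, named after its values were seen, was at 1685, 3005 and 2742 FPKM in WT. It was at 1917, 1706 and 1492 FPKM with Rad21 MO and at 1894, 2832 and 1470 with CTCF MO, and the same 3 libraries were highest. This order was widely shared: in 35 of 70 members (50%) those 3 libraries held the 3 highest of the 9 values, against 5.97% of all genes tested. Large-subunit rpl3 held 2222, 2132 and 2347 FPKM in them and at most 1618 in the others. The member sums were 155398, 146720 and 160092 FPKM in those 3 and 116076 to 146754 in the other 6, so the sums overlapped. All genes together summed to 1615667, 1815964 and 1746601 FPKM in those 3 and to 1368093 to 1635630 in the other 6. As a share of the library the members made up 9.62%, 8.08% and 9.17% in those 3 and 7.89% to 9.47% in the other 6, which overlap. The part of library scale in this order was not tested.

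**Figure D5:**
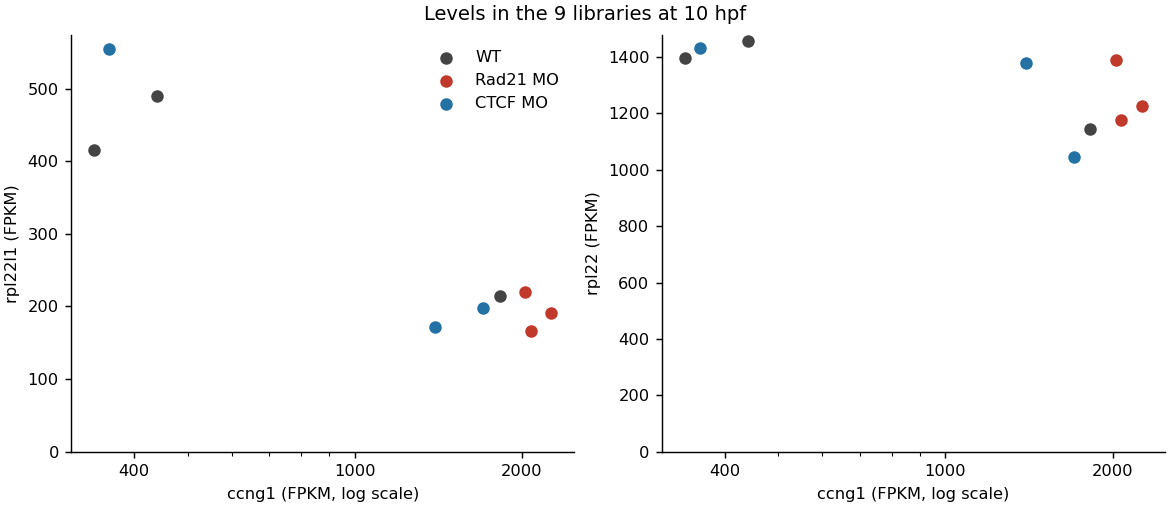
FPKM of rpl22l1 (left) and rpl22 (right) against ccng1, on a log x axis, in the 9 libraries of 10 hpf. The 3 libraries at low ccng1 hold 415 to 554 FPKM of rpl22l1 and the other 6 hold 166 to 219.

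The effect of the Rad21 morpholino was itself compared between stages, in 1 fit of all 45 libraries. Between 3.3 and 4.5 hpf it became more negative in 17 members and more positive in 0 (11.6% of all genes differed in either direction), with a median difference of -0.61 against -0.04 over all genes; 9 were large-subunit, 5 small-subunit and 2 stalk genes, and 1 was RPS19BP1. With CTCF MO 0 members differed (0.106% of all genes). At an unadjusted p under 0.05 were 0 members and 1461 of all 18943 genes tested. Between 5.3 and 10 hpf the effect became more positive in 1 member, rpl11 (5.00% of all genes). Its level was 468, 404 and 424 FPKM in Rad21 MO against 581, 661 and 494 in WT at 5.3 hpf, and 2721, 2689 and 2418 against 2202, 2282 and 2126 at 10 hpf, so the order of the groups turned (difference 0.66, SE 0.22, limma adjusted p = 0.0433). In CTCF MO embryos 0 members differed between these stages (4.42% of all genes). At an unadjusted p under 0.05 were 1 member and 3221 of all 18943 genes tested. Rescaling ended the 17 calls and that of rpl11, and called rpl22l1 lower instead.

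Neighbouring gene groups of the same machinery were counted beside the members. Over all genes tested, 25.3% rose and 21.4% fell in WT from 3.3 to 4.5 hpf. From 4.5 to 5.3 hpf 14.1% rose and 10.2% fell, and from 5.3 to 10 hpf 37.7% rose and 31.2% fell. With Rad21 MO at 4.5 hpf 10.1% of all genes were lower and 10.6% higher, and at 5.3 hpf 9.90% and 12.2%. At 10 hpf 3.23% differed from WT in either direction. Of 4 cytosolic ribosome genes named outside the pattern, all rose from 3.3 to 4.5 hpf and 2 fell in Rad21 MO at 4.5 hpf. One of these was gnb2l1, which encodes the ribosome-bound scaffold RACK1, at 241 ± 21.3 against 386 ± 57.9 FPKM (log2 change -0.67, limma adjusted p = 0.0182). The duplicates faua and faub, ubiquitin-like fusions of a small-subunit protein, parted in WT from 5.3 to 10 hpf. Over that step faua rose (161 ± 43.4 to 1362 ± 122 FPKM, adjusted p = 2.74e-07) and faub fell (95.8 ± 14.6 to 50.2 ± 12.2 FPKM, adjusted p = 0.000155). Of 46 ribosome biogenesis genes 29 rose from 3.3 to 4.5 hpf and 1 fell; in Rad21 MO 17 fell and 1 rose at 4.5 hpf, 20 fell at 5.3 hpf and 13 fell at 10 hpf. Of 14 elongation factor and related genes tested, 3 fell in Rad21 MO at 4.5 hpf and 5 at 5.3 hpf. Of 71 mitochondrial ribosomal protein genes tested, 10 rose and 25 fell in WT from 3.3 to 4.5 hpf, 17 rose and 2 fell from 4.5 to 5.3 hpf, and 62 rose and 1 fell from 5.3 to 10 hpf. In Rad21 MO at 4.5 hpf 18 of 69 mitochondrial genes rose and 0 fell, with a median log2 change of 0.29. Of 16 regulators of ribosomal protein synthesis 5 fell and 1 rose in Rad21 MO at 4.5 hpf. All counts and calls in these gene groups rest on the deposited values. They were not rerun after rescaling or quantile normalization, each of which ended all member calls in Rad21 MO at 4.5 hpf.

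A further 13 rows carry a cytosolic ribosomal protein symbol merged with another symbol, and 11 of these include a small nucleolar RNA. They were not members, and their values mix the transcripts of all symbols in a row. In the row of RPS20 and rps20 the symbols differ only in case. Of the 13, 10 rose from 3.3 to 4.5 hpf, 7 from 4.5 to 5.3 hpf and 13 from 5.3 to 10 hpf. Over all genes tested 25.3%, 14.1% and 37.7% rose over these steps. In Rad21 MO at 4.5 hpf 3 of the 13 fell, where 10.1% of all genes were lower. The counts for these 13 rows also rest on the deposited values and were not rerun under other scalings. Among members, 13 share their locus with 33 separately listed small nucleolar RNA rows, which are often cut from introns of ribosomal protein genes; rplp0 shares its locus with 5 of them and rps3 and rps7 with 4 each.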

How the data were processed

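The members and gene lists were chosen with earlier results of these data known. The authors deposited FPKM per gene and library; the tools named per the submitters' processing notes are Cuffdiff, Cufflinks 2.2.0 and TopHat2 2.0.9, and the genome build is Zv9 (danRer7). Any scaling between libraries is not given in the sources used here. The authors' deposited comparison tables hold group FPKM, a log2 fold change, p-values and q-values for significant genes only. Coordinates are those of the authors' file.

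Groups come from the sample titles. Columns name a group and a number from 0 to 2, used here as the library number. Nothing says that libraries came from separate clutches, so p-values cover only how these libraries vary, which may be technical.

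A pseudocount of 1 was added before taking log2, and limma 3.58.1 under R 4.3.3 made each test (moderated two-sided test with mean-variance trend, Benjamini-Hochberg adjustment over all genes tested, call at adjusted p under 0.05), which understates changes of low genes. A gene was tested if 3 or more libraries of the fit reached 1 FPKM. Each stage was fitted on 9 libraries, the WT course on 15 and differences between stages on 45. The method was run on simulated data with independent noise for each gene and no shift in library scale. That run cannot show how library scaling affects the calls. Steps between low values placed 15.7% to 27.7% of low genes at the commonest ratio, too few to recover reads. No sequences are shown, and a few genes are not reported here by name.

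Named members are, per comparison, up to 3 called rises and 3 called falls without overlap between libraries, the 5 highest and lowest in WT, those near the threshold, genes with a known role and paralogous pairs; other names complete short lists and were chosen after values were seen. Alternatives were rescaling to 1e+06, quantile normalization, a pseudocount of 0.1, no low-value filter, 1 fit of all 45 libraries and leaving out each library. Rescaling and the shares of a library used the sum of all rows, small nucleolar RNA rows included. Some of these were high in single libraries: at the rps12 locus they summed to 0, 10334 and 0 FPKM in WT at 4.5 hpf. Rescaling without such rows is not given here. Plots used Python 3.11.15, pandas 2.3.3 and matplotlib 3.10.9.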

Additional observations from a re-analysis of the deposited data

Results flagged for a closer look

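In some members the effect of the Rad21 morpholino differed between stages by a direct test in limma on the deposited values. Between 3.3 and 4.5 hpf 17 members were called, all more negative at 4.5 hpf, where 11.6% of all genes differed in either direction. The largest differences in log2 change were -0.97 in rpl36 (adjusted p = 0.0304), -0.86 in RPL31 (adjusted p = 0.0291) and -0.83 in rplp1 (adjusted p = 0.0453). Rescaling ended all 17 calls, and quantile normalization left 1, in RPS19BP1. The count of 17 was 2 without WT library 1 of 4.5 hpf and 39 without WT library 0. The shares of all genes called under these settings are not given here. Between 5.3 and 10 hpf 1 member was called, rpl11, where 5.00% of all genes became more positive. Its difference was 0.66 (limma adjusted p = 0.0433, and 0.0236 to 0.525 over the alternatives). Rescaling ended that call.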

How the results depend on the processing

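No paired analysis was possible because the columns carry numbers and not the replicate letters of the titles. Of 21 counts of members called 13 were 0. Of the 8 above 0, rescaling libraries to 1e+06 left 2 within 1.5 times, quantile normalization 1, a pseudocount of 0.1 7 and no low-value filter 5; the fit of all 45 libraries left 5 of the 6 it could change. Rescaling kept 1 call for the Rad21 MO difference between 5.3 and 10 hpf, but in rpl22l1 instead of rpl11. Of 20 named member changes rerun, 0 reversed direction; this count does not cover other named genes or the pair ratios. Rescaling gave 31 members for WT from 3.3 to 4.5 hpf, 16 from 4.5 to 5.3 hpf, and 0 for Rad21 MO at 4.5 and 5.3 hpf, for CTCF MO at 5.3 hpf and for the Rad21 MO difference between 3.3 and 4.5 hpf. Quantile normalization gave 1 (rpl19) from 2.5 to 3.3 hpf, 36, 17, 0, 1 and 0 for the same 5 comparisons, 1 (RPS19BP1) for that difference, 0 for the difference between 5.3 and 10 hpf and 1 (rplp2) for Rad21 MO against CTCF MO at 5.3 hpf. Without the filter Rad21 MO had 5 calls at 4.5 hpf and 12 at 5.3 hpf, and the difference between 5.3 and 10 hpf 0, as with the pseudocount of 0.1. One fit of all libraries gave 55 for Rad21 MO at 4.5 hpf, 2 at 10 hpf (rpl22l1 and rpl7l1), and against CTCF MO 12 at 4.5 hpf and 1 at 10 hpf. Leaving out each library gave 60 to 65 members from 3.3 to 4.5 hpf, 35 to 68 from 4.5 to 5.3 hpf, 68 to 69 from 5.3 to 10 hpf, 1 to 20 for Rad21 MO at 4.5 hpf, 3 to 43 at 5.3 hpf and 0 to 1 at 10 hpf, 0 to 7 for CTCF MO at 5.3 hpf, 0 to 4 for Rad21 MO against CTCF MO at 4.5 hpf, and 2 to 39 and 0 to 2 for the Rad21 MO differences. The cause was not tested. The shares of all genes called under these settings are not given in this section, so these counts alone do not size a change. Rescaled member sums from 2.5 hpf on were 12354, 11928, 20453 (5.3 hpf) and 89469 (10 hpf) in WT. With Rad21 MO they were 13926, 12537, 19387 and 84227, and with CTCF MO 12813, 12141, 20544 and 87870; those of 4.5 hpf moved by less than 1 SD. FPKM without read totals, pooled embryos and 3 libraries per group limit the precision.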

Other observations

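Single libraries held very high values in some merged rows that pair a ribosomal protein with small nucleolar RNAs. The rpl4 row was at 1165, 160.1 and 815 FPKM in WT at 2.5 hpf. Rad21 MO libraries held 4089, 375 and 173 FPKM, and the CTCF MO libraries 142, 158 and 1482. At 10 hpf the rpl37 row was at 14452 FPKM in 1 WT library against 2038 and 2415 in the others, at 6268 in 1 Rad21 MO library against 2528 and 2190, and at 8279 in 1 CTCF MO library against 2595 and 1894. In the authors' deposited tables the rpl4 row is listed as lower in Rad21 MO at 2.5 hpf (295 against 905 FPKM, q = 0.00905), where the mean of the deposited library values is higher than in WT (1546 against 713 FPKM).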
